A study of Mus musculus with 18 samples.

Results

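Cd244, Cd48 and Slamf6 are receptors of the signalling lymphocytic activation molecule (SLAM) family, and their genes lie on the chromosome that also carries Becn2. They were taken by gene name from 5 comparisons, with the results of these comparisons known, and are 3 of the 2202 distinct genes listed there. Tumours were compared with lymph nodes of mice lacking Beclin 2, and every other comparison set such mice against wild-type mice. The values of these comparisons chose the 3 genes, so their levels and folds are given as a description.

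SLAM receptors are cell surface proteins of the immunoglobulin superfamily carried by blood cells. Most bind their own kind on a neighbouring cell, while Cd244, also called 2B4, binds Cd48, a protein held in the membrane by a lipid anchor. Cd244, Slamf6 and several relatives carry tyrosine motifs in their tails that recruit the small adaptor SAP, made from Sh2d1a, and its relatives, or the phosphatases made from Ptpn6 and Ptpn11 in their place. Cd244 is known from natural killer cells and some CD8 T cells, and Slamf6, also called Ly108, from T, B and natural killer cells, where it takes part in contacts between T and B cells.

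Messenger RNA was sequenced from 18 samples of C57BL/6 mice in 9 groups of 2. The groups used here were splenic B cells and splenic T cells of Beclin 2 knockout and of wild-type mice 8 weeks old, lymphoma tissue of knockout mice, and lymph nodes of knockout and of wild-type mice, none of them stimulated or cultured. The labels give no age for the mice that supplied tumours and lymph nodes. They do not say how B and T cells were isolated, how the knockout allele was made, or whether both samples of a group came from different mice, so the spread between them may be technical. Macrophages treated with lipopolysaccharide were not analysed here.

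Each comparison came as a table of the genes whose adjusted p the authors found to be under 0.05. Such a gene is called here, and each group has 1 mean of normalised reads for it. Normalised reads are read counts divided by a factor for the depth of each library. The printed digits of the means still held the whole reads of both libraries of a group, which gave the values per library below. In wild-type B cells 30 pairs of depth factors fitted equally well, and in wild-type T cells 2. The pair nearest 1 was used, and values per library of these groups rest on that choice. Depth factors ran from 0.842 in wild-type T cells to 1.19 in wild-type B cells, so both ends rest on that choice too. In the other groups, where 1 pair fitted, factors ran from 0.858 to 1.18. Total depth is unknown. All 5 tables lack Becn2 and Becn1, so the knockout could not be checked on its own transcript. The B cell libraries held the B cell marker Fcer2a, at 6027 and 4398 normalised reads in knockout and 10432 and 9481 in wild-type B cells. The T cell libraries of knockout mice held Cd8b1, a chain of the CD8 coreceptor, at 3820 and 4744 normalised reads. Wild-type T cells averaged 7028, and their reads per library could not be solved for this gene.

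The 250 bases before the RefSeq transcript start of each gene, on build GRCm38.p6, show what lies directly upstream of the transcripts measured. All 3 genes run on the plus strand of chromosome 1. The windows are chr1:171558943-171559192 for Cd244, named Cd244a in RefSeq, chr1:171681742-171681991 for Cd48 and chr1:171917212-171917461 for Slamf6. Capitals mark matches to the motifs described next.
Cd244: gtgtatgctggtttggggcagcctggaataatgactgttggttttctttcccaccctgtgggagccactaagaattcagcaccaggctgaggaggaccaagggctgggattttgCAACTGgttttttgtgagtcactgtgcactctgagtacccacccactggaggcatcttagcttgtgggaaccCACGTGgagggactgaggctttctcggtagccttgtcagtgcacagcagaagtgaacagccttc
Cd48: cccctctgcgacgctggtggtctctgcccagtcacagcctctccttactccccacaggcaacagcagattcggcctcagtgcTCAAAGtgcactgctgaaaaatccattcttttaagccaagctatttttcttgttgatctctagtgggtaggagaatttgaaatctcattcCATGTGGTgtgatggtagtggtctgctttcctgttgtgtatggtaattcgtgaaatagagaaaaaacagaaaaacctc
Slamf6: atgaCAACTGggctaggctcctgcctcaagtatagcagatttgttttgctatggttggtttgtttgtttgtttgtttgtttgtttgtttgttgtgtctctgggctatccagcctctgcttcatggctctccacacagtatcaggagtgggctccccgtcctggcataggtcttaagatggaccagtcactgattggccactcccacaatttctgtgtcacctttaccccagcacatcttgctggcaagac

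The E-box, CANNTG on either strand, was present in all 3 windows and in 66.2% of 32851 RefSeq promoter windows of the same length. Cd244 held 2 copies, CAACTG from 136 to 131 and CACGTG from 64 to 59 bases before the start. Slamf6 held CAACTG from 246 to 241 bases before the start. In Cd48 an E-box at 78 to 73 bases overlapped TGTGGT, the core of a RUNX site, at 76 to 71 bases, and CTTTGA, the core of a TCF and LEF site, was read on the other strand at 168 to 163 bases. TGTGGT was present in 14% and CTTTGA in 13.8% of all windows, counting both strands. The TATA box TATAAA (12.4% of all windows), the ETS core GGAAGT (19.7%), the octamer ATTTGCAT (1.6%) and the GC box GGGCGG (32.7%) were in none of the 3 windows. The Slamf6 window held GTTT 8 times in a row, which 2 of the 32851 windows matched or exceeded. GC content was 53.2% for Cd244, 46% for Cd48 and 48.4% for Slamf6, against a median of 52.4% over all windows. The dinucleotide CG occurred 2, 4 and 1 times in the windows of Cd244, Cd48 and Slamf6, against a median of 6. A match is a string of letters and does not show that a factor binds there.

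Of the 3 genes, 1 was among the called genes in B cells, where 1.24% of the genes tested were called, and 1 in T cells, where 2.35% were called. None was listed between knockout and wild-type lymph nodes, where 0.475% of genes were called, or between tumours and knockout lymph nodes, where 1.77% were called. Between tumours and wild-type lymph nodes 2 of the 3 were listed, and 7.38% of genes were called, 3.34% higher and 4.04% lower. An adjusted p under 0.01 was reached by 0.935% of the genes tested in B cells, without Cd244. An adjusted p under 0.05 together with a difference of at least 2-fold was reached by 1.63% of the genes tested in T cells, without Slamf6. Between tumours and wild-type lymph nodes the same pair of limits was reached by 3.49%, with Slamf6 and without Cd48. These counts follow from how the genes were chosen. Comparisons of B cells and of T cells each had their own wild-type group, while the lymph node and tumour comparisons share libraries with each other.

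Cd244 transcripts were lower in knockout B cells. The knockout libraries held 117.3 and 227.8 normalised reads of Cd244, against 364.1 and 416.4 in the wild-type libraries. Both knockout libraries lay below both wild-type libraries, and the closest pair across the groups stood 1.60-fold apart, while the knockout libraries stood 1.94-fold apart from each other and the wild-type libraries 1.14-fold. Behind these values were 107 and 209 whole reads in knockout B cells and 365 and 497 in wild-type B cells. The wild-type values per library, and the gap of 1.60-fold, rest on 1 of 30 pairs of depth factors that fitted equally well. Exact 95% Poisson intervals ran from 87.7 to 129 and from 182 to 239 reads in knockout B cells. In wild-type B cells they ran from 329 to 404 and from 454 to 543 reads. These intervals cover counting error only, and not the choice of depth factors.

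On the means the log2 fold change of Cd244 was -1.18, a level 2.26-fold higher in wild-type than in knockout B cells. The adjusted p in the authors' deposited table was 0.022553, from DESeq. Among the 180 genes called lower in knockout B cells, Cd244 ranked 117 by the size of its fold, and their median size was 1.46 on the log2 scale. By adjusted p it ranked 254 of the 298 genes called. Without the knockout library of 117.3 normalised reads the log2 fold change was -0.78, and without the knockout library of 227.8 it was -1.73. The size of the fold thus moved with the choice of knockout library. Each of the 4 values with 1 library left out was negative, as it must be where the groups do not overlap.

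**Figure D1:**
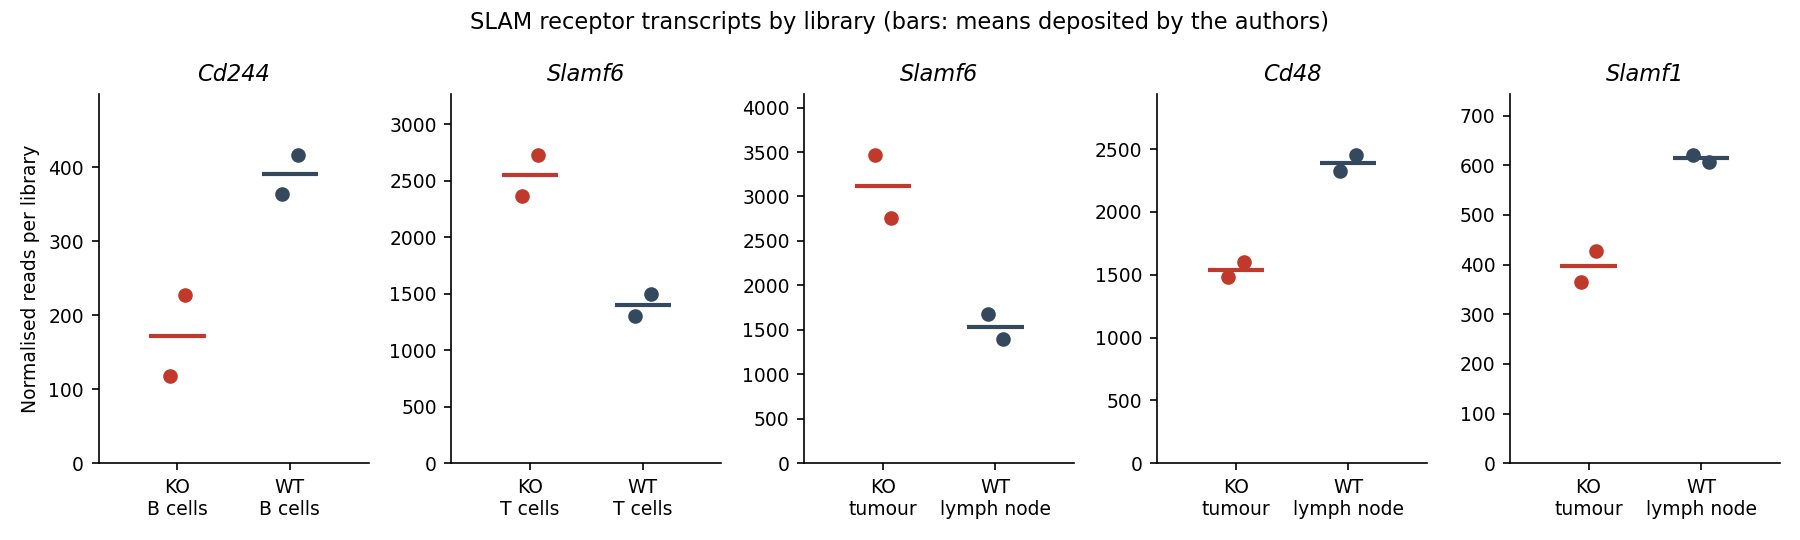
Normalised reads per library (vertical axis, linear from 0) of Cd244 in B cells, Slamf6 in T cells, and Slamf6, Cd48 and Slamf1 in tumour against wild-type lymph node. Red points are knockout libraries, dark points wild-type libraries, and bars the means the authors deposited. In each panel the libraries of both groups lie apart, and the widest gap in fold within a group is that of Cd244 in knockout B cells, at 117.3 and 227.8. Each gene shown had been called from these same libraries, so the separation of groups is no further support.

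Natural killer cell markers were lower in the same B cell libraries. Of 13 such markers 11 were called and all 11 were lower in knockout B cells, with a median log2 fold change of -1.55, while 0.751% of all genes tested were called lower. This list and the other marker lists below were chosen with earlier results of these data known. Their counts are thus a description and no support for a shared change. Summed over the 11 markers, knockout libraries held 3059 and 3347 normalised reads and wild-type libraries 9304 and 9283. Ncr1, the activating receptor NKp46, stood at 179.8 and 261.6 normalised reads in knockout B cells and 714.0 on average in wild-type B cells, a log2 fold change of -1.69. Gzma, a protease of cytotoxic granules, had a log2 fold change of -1.96 and Klra8, the activating receptor Ly49H, of -2.27. Nkg7 and Il2rb were the 2 markers not listed, and no marker called was at 0 in either group.

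Set against the sum of those markers, Cd244 reads did not separate the groups. Cd244 amounted to 3.84% and 6.81% of the reads of the 11 markers in knockout libraries and to 3.91% and 4.49% in wild-type libraries, and these ranges overlap. Against each marker on its own the ratio of Cd244 reads overlapped between the groups for 7 of the 11, and was higher in both knockout libraries for Ncr1, Klrc2, Klra8 and Gzma. The wild-type shares and ratios rest on the choice of depth factors for wild-type B cells. Fewer cells of a type and less RNA per cell cannot be told apart in such bulk samples. The part of the natural killer cell markers in the lower Cd244 level was not tested.

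**Figure D2:**
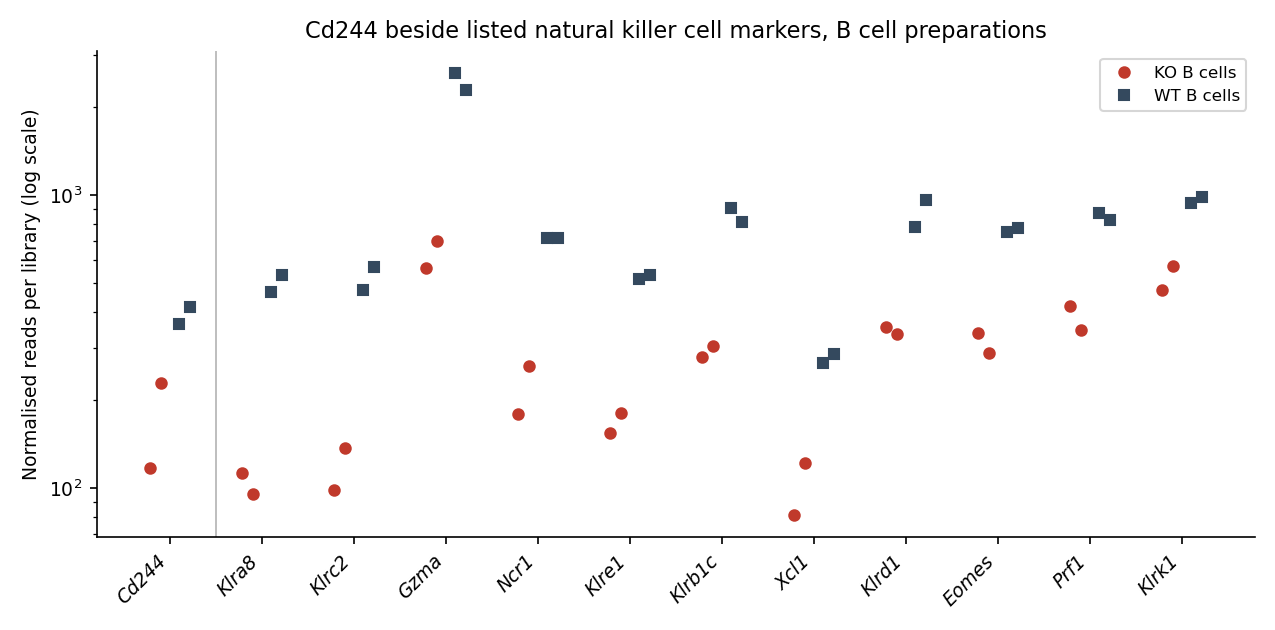
Normalised reads per library (vertical axis, log scale) of Cd244, left of the grey line, and of the 11 called natural killer cell markers in B cell libraries. Red circles are knockout and dark squares wild-type B cells. For Cd244 and for each of the 11 markers, both knockout points lie below both wild-type points. All had been called lower from these same libraries, so this separation is no further support.

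Among other markers in B cells, Fcer2a, the low-affinity IgE receptor, was the 1 of 8 B cell markers called, with a log2 fold change of -0.93. No T cell marker (of 10), plasma cell marker (of 6) or monocyte and macrophage marker (of 10) was called. Of 10 genes of follicular helper T cells and checkpoint receptors, Lag3 and Gzmk were called, both higher in knockout B cells, with log2 fold changes of 1.77 and 2.09. No other SLAM receptor, none of the 3 SAP family adaptors and none of 11 signalling partners was called in B cells.

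Cd48, which encodes the ligand of Cd244, was listed in the comparison of tumours with wild-type lymph nodes, and its transcripts were lower in tumours. Tumour libraries held 1478.1 and 1600.0 normalised reads of Cd48, against 2324.5 and 2451.8 in wild-type lymph nodes. The values within each group lay close together, and the lowest wild-type library stood 1.45-fold above the highest tumour library. The log2 fold change was -0.63, and the adjusted p in the authors' deposited table was 0.0003139. By size of fold Cd48 ranked 634 of the 893 genes called lower, whose median size was 0.87 on the log2 scale, and by adjusted p it ranked 506 of all 1630 called. With each library left out in turn its log2 fold change ran from -0.69 to -0.58. Cd244 itself was not listed in this comparison.

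Slamf6 alone of the 3 receptors was listed in 2 comparisons. It was higher in knockout than in wild-type T cells, and in tumours of knockout mice than in wild-type lymph nodes. Genotype and tissue both differ in the tumour comparison, and their parts cannot be told apart. Between knockout and wild-type lymph nodes Slamf6 was not listed. In T cells the knockout libraries held 2366.3 and 2726.7 normalised reads of Slamf6, against 1301.1 and 1493.2 in wild-type T cells. The groups did not overlap, and the closest libraries across the groups stood 1.58-fold apart. The log2 fold change on the means was 0.87, or 1.82-fold, with an adjusted p of 0.00019983 in the authors' deposited table. It ranked 355 of 418 higher genes by fold, among a median size of 1.54 on the log2 scale, and 204 of 587 by adjusted p. Leaving out each library in turn gave log2 fold changes from 0.76 to 0.97.

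In the tumours Slamf6 stood at 3465.0 and 2762.4 normalised reads, against 1674.9 and 1394.6 in wild-type lymph nodes. Both tumour libraries lay above both lymph node libraries, with 1.65-fold between the closest of them. The log2 fold change was 1.02, or 2.03-fold, and the adjusted p in the authors' deposited table was 0.0006637. Its rank by fold was 382 of 737 higher genes, near their median size of 1.06 on the log2 scale, and its rank by adjusted p was 600 of 1630. With each library left out in turn the log2 fold change ran from 0.85 to 1.17.

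Other cell type markers also moved in the T cell libraries. Of 10 follicular helper and checkpoint genes 5 were called, all higher in knockout T cells, where 1.67% of all genes tested were called higher. These were the inhibitory receptors Pdcd1, Lag3 and Tigit, at log2 fold changes of 1.15, 1.84 and 1.44, the cytokine gene Il21 at 2.32 and the granzyme gene Gzmk at 2.93. Their summed level was 2223 and 2273 normalised reads in knockout and 808 and 666 in wild-type T cells. Plasma cell markers were higher for 5 of 6 genes, at sums of 6409 and 7037 in knockout and 2307 and 1533 in wild-type T cells. Monocyte and macrophage markers were higher for 6 of 10, at sums of 12045 and 9270 in knockout and 5328 and 2407 in wild-type T cells. Of the 10 T cell markers only Cd8b1 was called, with a log2 fold change of -0.71, and of the 13 natural killer cell markers Klrd1 and Xcl1 were called, both lower. None of the 8 B cell markers was called. Levels of uncalled markers are not given by the tables, and the part of these markers in the Slamf6 difference was not tested.

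The SLAM receptors differed from each other within the tumour comparison. Of 9 receptor genes 3 were called, Slamf6 higher and Cd48 and Slamf1 lower, beside 7.38% of all genes tested. Slamf1, the founding member of the family and a receptor that binds its own kind, was not among the 3 genes chosen. It held 365.7 and 426.6 normalised reads in tumours and 620.4 and 606.8 in wild-type lymph nodes, a log2 fold change of -0.63 with an adjusted p of 0.040008 in the authors' deposited table. Ly9, Cd84, Slamf7, Slamf8 and Slamf9 were listed in none of the 5 tables.

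Ratios of reads within a library do not depend on the depth factor. The ratio of Slamf6 to Cd48 reads was 2.34 and 1.73 in tumours and 0.721 and 0.569 in wild-type lymph nodes. The ratio of Slamf6 to Slamf1 reads was 9.48 and 6.48 in tumours and 2.70 and 2.30 in wild-type lymph nodes. Both ratios were higher in each tumour library than in each lymph node library. This follows from the calls, as Slamf6 was higher and Cd48 and Slamf1 lower in both tumour libraries, and is no further support. The ratio of Slamf1 to Cd48 reads was 0.247 and 0.267 in tumours and 0.267 and 0.247 in wild-type lymph nodes, so the groups overlapped.

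**Figure D3:**
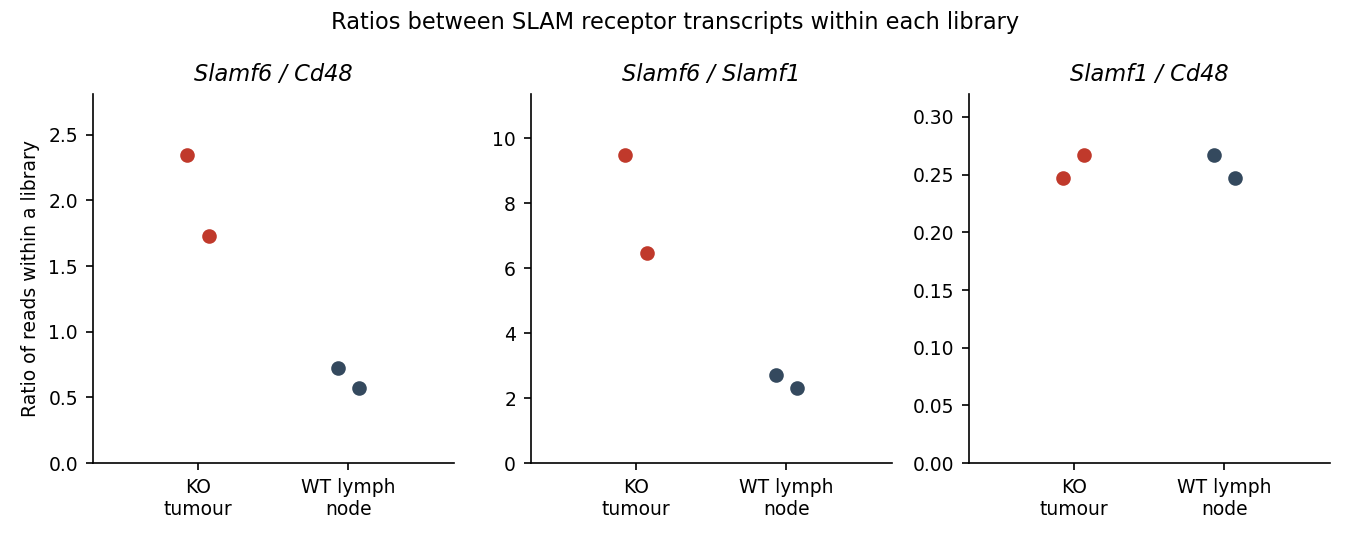
Ratio of whole reads of 2 SLAM receptor genes within each library (vertical axes, linear from 0), for tumour (red) and wild-type lymph node (dark) libraries. Slamf6 over Cd48 and Slamf6 over Slamf1 are higher in both tumour libraries, and Slamf1 over Cd48 lies between 0.247 and 0.267 in all 4 libraries. The separation in both Slamf6 ratios follows from the calls made on these same libraries and is no further support.

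Levels of different genes can be set side by side only per length. Per kilobase of merged exon, Cd48 averaged 1294 normalised reads in tumours and 2009 in wild-type lymph nodes, the highest of the 3 receptors in both. Slamf6 averaged 287 normalised reads per kilobase in tumours and 142 in wild-type lymph nodes. Slamf1 averaged 64.3 in tumours and 99.7 in wild-type lymph nodes on the same scale. Per kilobase, the order Cd48, Slamf6, Slamf1 held in every library of this comparison. Merged exons take in all annotated exons, 10.832 kb for Slamf6 and 1.189 kb for Cd48. The transcripts present may be shorter, so the order rests on these lengths. In T cells Slamf6 averaged 235 normalised reads per kilobase in knockout and 129 in wild-type libraries. In B cells Cd244 averaged 35.4 in knockout and 80.0 in wild-type libraries, per kilobase of exon.

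Markers of T cells moved in both directions in the tumours, where 7.38% of all genes tested were called against wild-type lymph nodes. Of 10 T cell markers 6 were called, Cd4 and Cd28 higher with log2 fold changes of 0.42 and 0.91, and Cd8a, Cd8b1, Lck and Trac lower at -0.74, -0.65, -0.41 and -0.71. Summed over the 6, tumour libraries held 21328 and 19851 normalised reads and wild-type lymph nodes 25815 and 23102. Slamf6 reads amounted to 16.2% and 13.9% of the reads of these 6 markers in tumours, against 6.49% and 6.04% in wild-type lymph nodes, and 4 of the 6 were themselves lower in tumours. Cd48 amounted to 6.93% and 8.06% in tumours and to 9.0% and 10.6% in wild-type lymph nodes. Slamf1 amounted to 1.71% and 2.15% in tumours and to 2.40% and 2.63% in wild-type lymph nodes. The groups did not overlap for any of the 3 shares. Against each marker on its own, the ratio of Slamf6 reads was higher in both tumour libraries for 5 of the 6 markers. For Cd8a, Cd8b1, Lck and Trac, and for the share of the sum, this followed from the calls. Slamf6 was higher, and these markers and the sum lower, in both tumour libraries. Against Cd28 the Slamf6 ratio was 1.11 and 1.10 in tumours and 1.12 and 0.928 in wild-type lymph nodes, so the groups overlapped. The ratios of Cd48 and of Slamf1 were each lower in both tumour libraries against Cd4, Lck and Cd28, and overlapped between the groups against Cd8a, Cd8b1 and Trac. Against Cd4 and Cd28, both higher in each tumour library, the lower ratios too followed from the calls.

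Other marker lists differed between tumours and wild-type lymph nodes as well, where 7.38% of all genes tested were called. Plasma cell markers were higher for 5 of 6 genes, at sums of 14682 and 14085 normalised reads in tumours and 5036 and 5227 in wild-type lymph nodes. The B cell markers Fcer2a and Cr2 were lower (2 of 8), summing to 6058 and 6382 in tumours and 15599 and 16640 in wild-type lymph nodes. Of 13 natural killer cell markers 7 were called, Eomes higher and 6 lower, with sums of 3067 and 2998 in tumours and 4300 and 4090 in wild-type lymph nodes. Marco and Itgam, markers of macrophages and myeloid cells, were lower (2 of 10), at sums of 1598 and 1196 in tumours and 6344 and 9114 in wild-type lymph nodes. Of the 10 follicular helper and checkpoint genes Pdcd1, Il21, Gzmk and Tigit were higher and Bcl6 lower. Their sums were 3117 and 3173 in tumours and 2411 and 2436 in wild-type lymph nodes. All 5 genes of the salivary gland list were higher, summing to 446060 and 169837 normalised reads in tumours and 20792 and 6491 in wild-type lymph nodes. The part of these markers in the differences of Slamf6, Cd48 and Slamf1 was not tested.

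Downstream of the receptors, 3 of 11 signalling partners were called in tumour against wild-type lymph node, 2 higher and 1 lower. Over all genes tested, 7.38% were called in this comparison, 3.34% higher and 4.04% lower. Ptpn6, which encodes the phosphatase SHP-1, had 6419 and 7164 normalised reads in tumours and 9204 and 8998 in wild-type lymph nodes, a log2 fold change of -0.42 with an adjusted p of 0.0077284 in the authors' deposited table. Ptpn11, which encodes SHP-2, was higher at a log2 fold change of 0.47 and an adjusted p of 0.0081351 in the authors' deposited table. Plcg1, a phospholipase that acts after antigen receptors, was higher at 0.43 on the log2 scale and an adjusted p of 0.021827 in the authors' deposited table. None of these 3 differences reached 2-fold. The 3 SAP family adaptors were called in no table, and the other partners in none either.

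The tables that do not list a receptor do not show that it was unchanged. Their reach at a like level can be read from the listed genes whose higher group mean lay within 1.5-fold of that of the receptor, a band chosen after the data were seen. For Cd244, at its level in wild-type B cells, the smallest log2 fold change among such genes was 0.68 in T cells (136 genes), 1.62 between knockout and wild-type lymph nodes (17 genes), 1.05 between tumours and knockout lymph nodes (70 genes) and 0.65 between tumours and wild-type lymph nodes (266 genes), all in size without sign. For Slamf6, at its level in tumours, it was 0.70 in B cells (26 genes), 0.66 between knockout and wild-type lymph nodes (10 genes) and 0.64 between tumours and knockout lymph nodes (48 genes). For Cd48, at its level in wild-type lymph nodes, it was 0.70 in B cells (32 genes), 0.58 in T cells (46 genes), 0.66 between knockout and wild-type lymph nodes (14 genes) and 0.66 between tumours and knockout lymph nodes (63 genes). A difference of Cd48 of the size seen in tumours, 0.63 on the log2 scale, was therefore smaller than any listed at that level in 3 of the 4 tables without it. The level of a receptor is unknown where it is not listed, so the reach for it there may differ.

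Markers moved in those tables too, where none of the 3 receptors was listed. In knockout against wild-type lymph node 3 of 8 B cell markers, Cd79a, Pax5 and Fcer2a, were lower and the macrophage marker Siglec1 was higher (1 of 10). No T cell, natural killer cell, plasma cell or follicular helper and checkpoint gene of the lists was called there. In tumour against knockout lymph node 5 of 6 plasma cell markers, 3 of 10 follicular helper and checkpoint genes, all 5 salivary gland genes and the natural killer and T cell factor Eomes were higher. In the same comparison 4 of 10 monocyte and macrophage markers and the B cell marker Cr2 were lower.

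The 3 receptor genes form part of a cluster of SLAM receptor genes on chromosome 1. On GRCm38, with the annotation of GENCODE M21, Cd244 lies at chr1:171559193-171609746, Cd48 at chr1:171682009-171705258 and Slamf6 at chr1:171917515-171953170. Slamf1 lies between Cd48 and Slamf6 at chr1:171767127-171801184. Becn2 lies at chr1:175920329-175922225, which leaves gaps of 4.31 Mb to Cd244, 4.22 Mb to Cd48 and 3.97 Mb to Slamf6. Ly9 lies within the span of Cd244 on the other strand, and the antisense gene Gm37065 overlaps the start of Slamf6. The strand setting of the read counting is not given in the sources used here, so reads of these overlapping genes cannot be told apart. Cd48 overlaps the predicted gene Gm37010 on its own strand, with the same limit.

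The region from the first to the last of the 9 receptor genes spans 1.03 Mb and holds 49 annotated genes, 28 of them protein coding. Called genes in it numbered 2 in B cells (4.08% of the annotated genes), 3 in T cells (6.12%), 1 between knockout and wild-type lymph nodes (2.04%), 0 between tumours and knockout lymph nodes and 7 between tumours and wild-type lymph nodes (14.3%). These shares take annotated genes as the base and the percentages called given above take genes tested, and the members were chosen from this region, so no comparison of the shares is drawn.

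Beside Cd244, the other called gene of the region in B cells was the predicted gene Gm10521, between Cd84 and Slamf6. It had 116.2 and 121.0 normalised reads in knockout and 262.3 and 315.0 in wild-type B cells, a log2 fold change of -1.28. In T cells Igsf8, which encodes an immunoglobulin superfamily membrane protein, was higher at a log2 fold change of 0.94, and Vangl2, a gene of planar cell polarity, was lower at -1.63. In tumour against wild-type lymph node Ncstn, a subunit of gamma-secretase, was lower at -0.46, Tagln2, an actin-binding protein gene, at -0.45, and Igsf9, another immunoglobulin superfamily gene, at -1.57. Slamf6 and Igsf8 were higher in knockout T cells while Vangl2, whose gene lies between them, was lower, so called genes of the region did not share a direction.

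Around Becn2 itself, 0 of 36 annotated genes within 1 Mb were listed in each of the 5 comparisons, a window too small to set apart from the shares of 0.475% to 7.38% called over all genes tested. Within 5 Mb, which takes in all of the receptor genes and 282 annotated genes in all, 10 were called in B cells, 11 in T cells, 8 between knockout and wild-type lymph nodes, 1 between tumours and knockout lymph nodes and 23 between tumours and wild-type lymph nodes. As shares of the annotated genes these are 3.55% in B cells, where 1.24% of genes tested were called, 3.90% in T cells, against 2.35%, and 2.84% between knockout and wild-type lymph nodes, against 0.475%. Between tumours and knockout lymph nodes the share was 0.355%, against 1.77%, and between tumours and wild-type lymph nodes 8.16%, against 7.38%. Within 10 Mb, with 476 annotated genes, the shares were 2.1% in B cells, 2.31% in T cells and 1.68% between knockout and wild-type lymph nodes. They were 0.84% between tumours and knockout lymph nodes and 6.51% between tumours and wild-type lymph nodes. The bases differ here too, and no comparison of these shares is drawn.

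**Figure D4:**
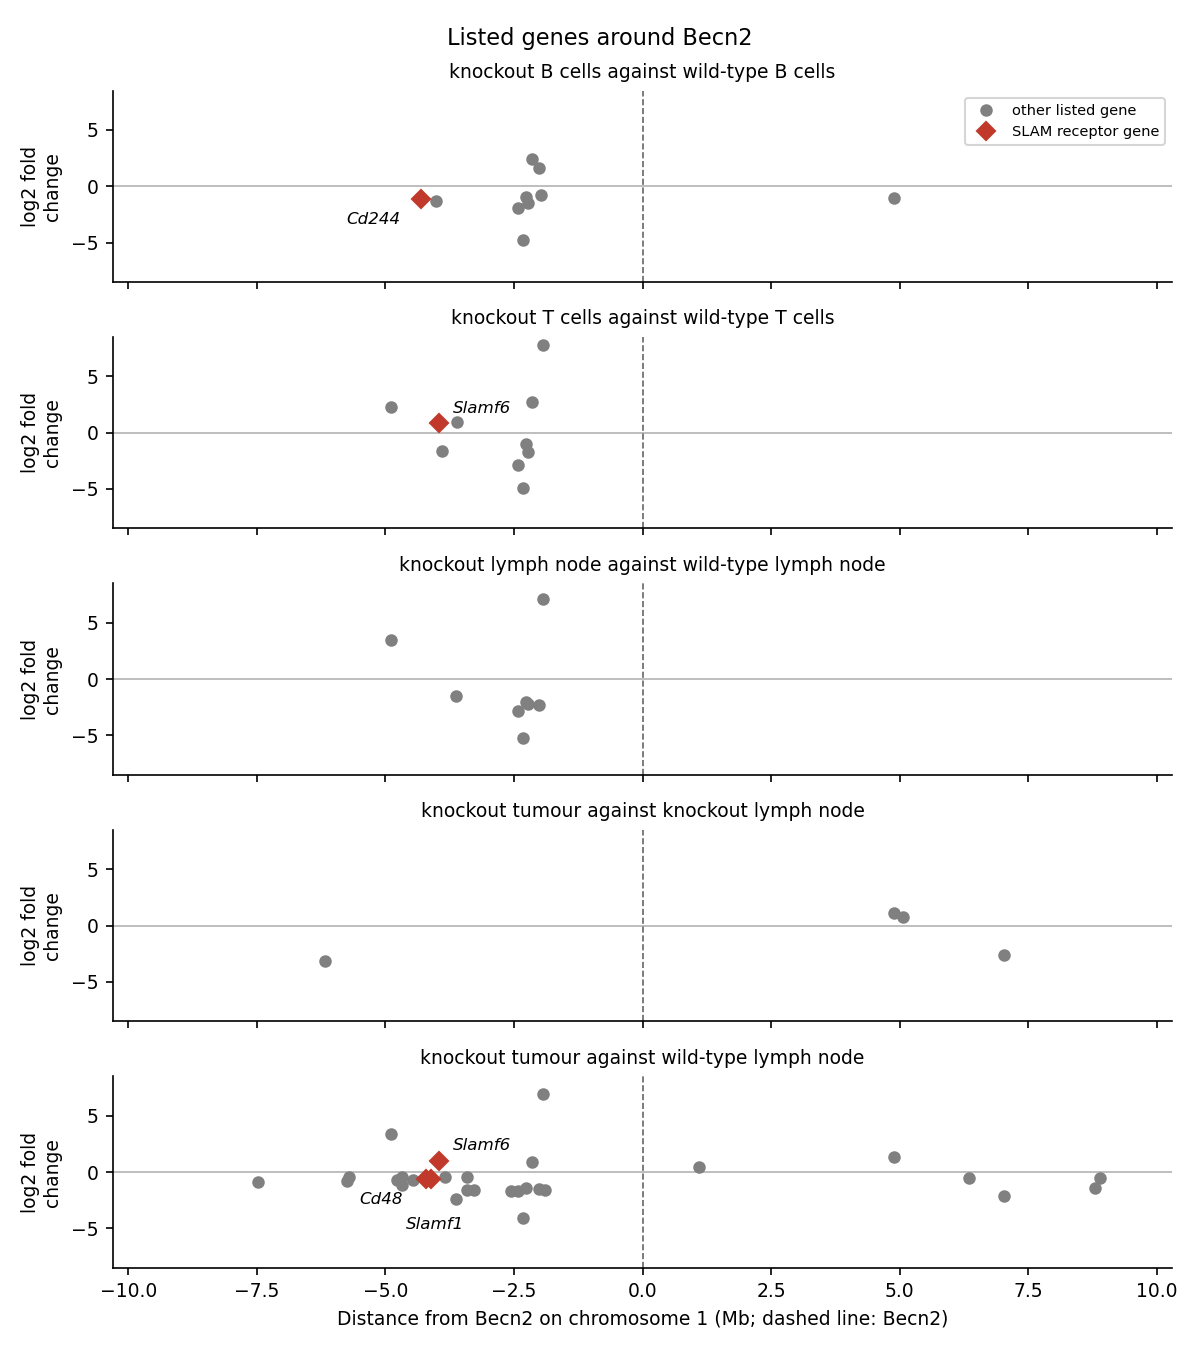
Log2 fold change (vertical axes) of the called genes with finite values, by distance from Becn2 on chromosome 1 in Mb (horizontal axis), 1 panel per comparison, with the first-named group over the second. Red diamonds are SLAM receptor genes and grey points other called genes. Cd244 lies 4.31 Mb, Cd48 4.22 Mb and Slamf6 3.97 Mb from Becn2, and no called gene lies within 1 Mb of it.

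Of the 3 genes Slamf6 alone allows a search for genes of like pattern over more than 1 table. The comparison of T cells and that of tumour with wild-type lymph node share no samples, and 245 genes were listed in both, which is 41.7% of the T cell table and 15% of the tumour table. Of these, 144 were higher in both, 60 lower in both and 41 opposite. By the larger of the differences in log2 fold change over both comparisons, the 5 genes nearest to Slamf6 included Hk2, Hsp90b1, Rrbp1 and Dok2, and all 5 had largest differences of 0.065 to 0.14.

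Hk2, which encodes a hexokinase of glycolysis, had log2 fold changes of 0.80 in T cells and 1.07 in tumours. Hsp90b1, a chaperone of the endoplasmic reticulum, had 0.95 in T cells and 1.07 in tumours, and Rrbp1, a ribosome-binding protein of the same organelle, 0.73 in T cells and 0.96 in tumours. Dok2, an adaptor protein that dampens tyrosine kinase signalling, had 1.01 in T cells and 1.13 in tumours. Their levels were unlike that of Slamf6 in part. Hk2 held 329.9 and 349.3 normalised reads in knockout T cells and 214.9 and 175.0 in wild-type T cells. Dok2 held 2339.6 and 2499.4 in knockout and 1210.9 and 1199.0 in wild-type T cells.

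**Figure D5:**
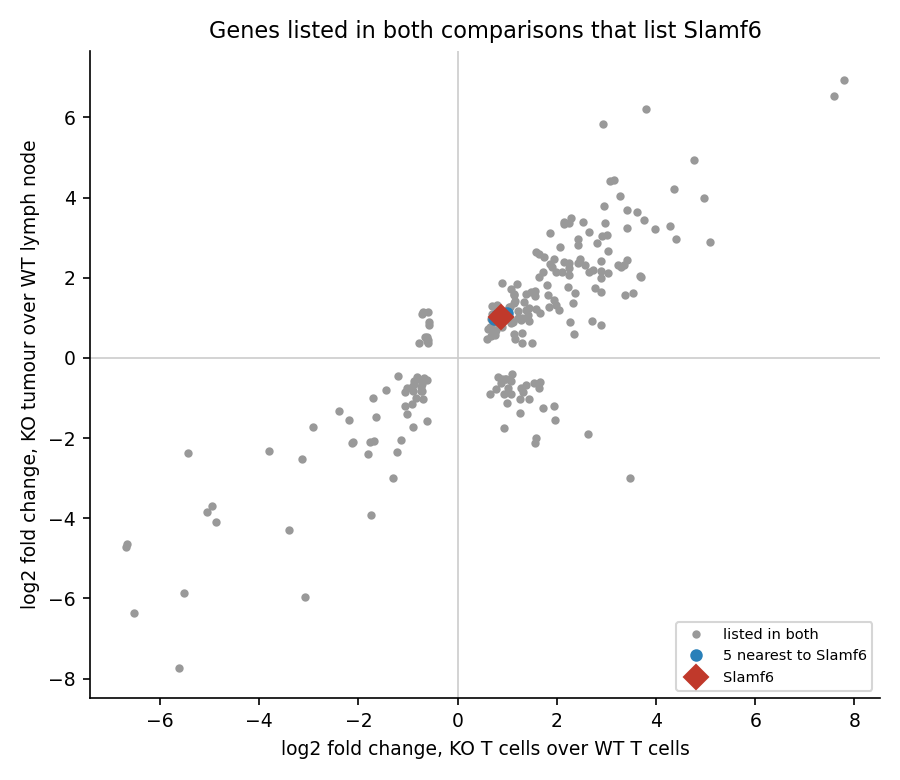
Log2 fold change in tumour over wild-type lymph node (vertical axis) against that in knockout over wild-type T cells (horizontal axis), for 230 of the 245 genes listed in both, the remainder having a mean of 0 in a group. The red diamond is Slamf6, at 0.87 and 1.02, and blue points are the 5 genes nearest to it.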

How the data were processed

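Per the labels' protocols, libraries were made from oligo(dT)-enriched RNA for the Illumina HiSeq. The submitters' processing notes name CASAVA 1.8, DESeq and the builds GRCm38 and mm10. The aligner, counter, strand setting and annotation release are not given in the sources used here. The authors deposited 1 signal per gene and group, a mean normalised read count, with a log2 fold change, a p-value and an adjusted p-value, for called genes only (largest adjusted p 0.0494 to 0.0499). No column of single-sample values was left unused. The 31 names without values in the B cell table were left out.

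Log2 fold changes were recomputed from the deposited means, first-named group over second, and no test was added. Genes tested were counted from the relation of p, rank and adjusted p under Benjamini-Hochberg adjustment. Whole reads per library were recovered from the digits of the means, with size factors nearest 1 where several pairs fitted equally. Reads of both groups were solved for 288 of 298 genes in B cells, 511 of 587 in T cells and all genes elsewhere. Tested on simulated data, all reads solved were right in 10 groups. The reads recovered for a group from different tables were identical for 430 of 430 genes that 2 tables share. Only lymph node and tumour groups occur in more than 1 comparison, so that check did not reach the B and T cell groups. Recovered libraries carry no replicate number. A test of 2 libraries against 2 cannot give an exact permutation p below 0.333.

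The genes and the 10 gene lists were chosen with earlier results of these data known. Named genes were the 3 receptors, listed genes of the receptor, adaptor and partner lists, listed genes between the outermost receptor genes, and the 5 genes nearest to a receptor listed in more than 1 table; markers were named from their lists. Some genes that this rule gives are not reported here. GENCODE M21 gave positions for 294 listed genes in B cells, 582 in T cells, 105 between lymph nodes, and 416 and 1623 between tumours and knockout or wild-type lymph nodes, and RefSeq the position of Becn2 and the promoters, with all 3 receptors matched. Alternatives were an added pseudocount of 1, the deposited fold changes, each library left out, an adjusted p under 0.01, a minimum of 2-fold and a minimum mean of 50. Python 3.11.15, numpy 2.4.6, pandas 2.3.3, scipy 1.17.1 and matplotlib 3.10.9 were used.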

Additional observations from a re-analysis of the deposited data

How the results depend on the processing

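Log2 fold changes of Cd244, Slamf6 and Cd48 kept their sign with 1 added to both means, as deposited by the authors, and with each library left out. None of these settings could have changed a sign. Adding 1 keeps the order of the means, and the deposited values differ by rounding only. Leaving out a library keeps the sign where the groups do not overlap, as here. Left-out libraries gave -1.73 to -0.78 for Cd244 in B cells, 0.76 to 0.97 for Slamf6 in T cells, and 0.85 to 1.17 for Slamf6 and -0.69 to -0.58 for Cd48 in tumours against wild-type lymph nodes. The value of Cd244 moved by over 1.5 times without the knockout library of 117.3 normalised reads, and those of C1qb in T cells and Car6 and Dcpp1 in tumour against knockout lymph node also moved by over 1.5 times with a library left out.

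At an adjusted p under 0.01, called SLAM receptors in B cells numbered 0 and called genes between the outermost receptor genes in B cells 1. With a minimum of 2-fold, called SLAM receptors numbered 0 in T cells and called genes between the outermost receptor genes 1. Under the same minimum, tumours against wild-type lymph nodes had 1 called SLAM receptor, 0 called signalling partners and 3 called genes between the outermost receptor genes. These stricter settings lower counts by construction. Of the remaining alternatives, 37 of the main results and 695 of the others stayed within their spread or within 1.5 times the count, 23 others moved and none reversed. The added pseudocount and the deposited fold changes could not have reversed a sign.

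No paired analysis was possible because the tables hold 1 mean per group and recovered libraries carry no replicate number. With 2 libraries per group and called genes only, neither the spread of a group nor the level of an uncalled receptor is well known.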
